A study of Mus musculus with 8 samples.

Results

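The genes described here are 7 chemokines that gut epithelium can make, Ccl25, Ccl28, Ccl20, Ccl6, Cxcl16, Cx3cl1 and Cxcl1, and Pigr, the receptor that carries IgA across the epithelium. They were chosen by symbol, and all 8 were found through their Ensembl identifiers among the 45706 genes counted. RNA-Seq had been performed on crypts, the gland-like pockets of the intestinal lining, isolated with EDTA from the small intestine (SI) and the colon (COL) of 4 wild type C57BL/6N mice. Mice 1 and 5 were female and mice 2 and 3 male, the labels name no treatment, and both tissues of each mouse were sequenced, as 1 library apiece. The libraries are called SI1 to SI4 and COL1 to COL4, with mouse 5 as the last of each. In the crypt protocol, which is described for organoid cultures, the proximal small intestine was taken and its villi were scraped off. EDTA was used for longer and at a higher concentration for the colon. Whether the sequenced SI crypts were also proximal is not stated. 7 of the 8 genes had enough counts to be tested, and Cxcl1 did not.

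Chemokines are small secreted proteins that attract leukocytes through receptors on those cells. CCL25 binds CCR9 on gut-homing T cells and IgA plasma cells, whereas CCL28 binds CCR10 on IgA plasma cells and CCR3 on eosinophils. CCL20 attracts CCR6-positive lymphocytes and dendritic cells to lymphoid follicles, CCL6 binds CCR1 on myeloid cells, and CXCL1 attracts neutrophils through CXCR2. CXCL16 and CX3CL1 are made as membrane proteins that can be cut off the cell surface, and their receptors are CXCR6 and CX3CR1. The polymeric immunoglobulin receptor encoded by Pigr binds dimeric IgA at the base of the epithelial cell, is carried to the lumen side, and is cleaved there to release secretory IgA.

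Ccl25, Cx3cl1 and Cxcl16 were higher in SI crypts, and Ccl6 and Ccl28 were higher in COL crypts. Ccl25 was the most unequal of the tested genes in the set, at 157-fold more in SI, and Ccl6 was the most unequal in the other direction, at 6.3-fold more in COL. Pigr was 2.19-fold higher in SI, with no overlap between the tissues, yet it did not pass the test. Ccl20 did not pass the test either. Of the 7 genes tested, 5 passed, 3 with more in SI and 2 with more in COL, by edgeR's quasi-likelihood test at an adjusted p-value of 0.05. Among all 14491 genes tested, 28.4% passed the same test, 15.5% as higher in SI and 12.9% as higher in COL.

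Total counts ranged from 15969428 to 32908060 per library. The share of mitochondrial transcripts was low in 4 libraries (SI1, SI4, COL3, COL4), at 4.83% to 7.35%, and high in the other 4, at 22.7% to 50.8%. In SI, the libraries of low mitochondrial share were those of the 2 female mice, so that sex and mitochondrial share cannot be told apart there. Values are given as CPM, which are counts scaled to a common library size with TMM factors, a method that assumes that most genes do not differ between libraries. Its factors were 0.727 to 0.798 in SI and 1.01 to 1.45 in COL. With scaling by library size alone, the median over all genes of the log2 fold change moved from -0.09 to -0.82, and 18.9% instead of 54.7% of the genes that passed were higher in SI. A log2 fold change above 0 means more in SI. The summed level of 7 general epithelial markers was 8724 to 14271 CPM in SI and 4552 to 13591 CPM in COL. 8 enterocyte markers summed to 57217 to 124976 CPM in SI and to 96.3 to 357 CPM in COL, and 6 colonocyte markers to 471 to 1197 CPM in SI and to 5246 to 32213 CPM in COL. Apoa1 was the largest part of the first sum in each SI library, and Car1 of the second in each COL library. In the other tissue the largest part was Slc5a1 for the first sum, at 83.3 to 221 CPM in COL. For the second sum it was Ceacam20, at 160 to 741 CPM in SI. All 8 enterocyte markers were higher in SI, whereas of the 6 colonocyte markers 4 were higher in COL, Slc26a3 did not pass, and Ceacam20 was higher in SI (adjusted p = 0.0129 by edgeR). In such bulk samples, fewer cells of a type and less RNA per cell cannot be told apart.

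The sequences before the start sites of Ccl25, Ccl6 and Ccl28, which differed between the tissues, and of Pigr are shown because they are the DNA next to which transcription of these genes begins. They are the 250 bases upstream of a RefSeq start on GRCm38.p6, the assembly of mm10, written 5′ to 3′ on the strand of the gene. 7 of the 8 genes had such a window, and windows with bases in an annotated exon are not printed. Motifs were searched on both strands and stand in capitals. They were TTTATG, the core bound by CDX factors, CACGTG, an E-box, TATAAA, the TATA box, GAAANNGAAA, an element bound by interferon regulatory factors, and the NF-kappaB consensus. Of 32851 mouse windows of the same length, 10.8% held the CDX core, 6.02% the E-box, 12.4% the TATA box, 2.98% the interferon regulatory element and 7.25% the NF-kappaB consensus.
Ccl25 (second start, chr8:4349338-4349587, plus strand): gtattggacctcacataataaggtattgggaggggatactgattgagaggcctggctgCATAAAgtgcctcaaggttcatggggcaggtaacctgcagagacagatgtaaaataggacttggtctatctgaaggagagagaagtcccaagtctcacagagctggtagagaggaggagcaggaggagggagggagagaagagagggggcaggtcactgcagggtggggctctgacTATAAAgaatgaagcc
Ccl6 (chr11:83593088-83593337, minus strand): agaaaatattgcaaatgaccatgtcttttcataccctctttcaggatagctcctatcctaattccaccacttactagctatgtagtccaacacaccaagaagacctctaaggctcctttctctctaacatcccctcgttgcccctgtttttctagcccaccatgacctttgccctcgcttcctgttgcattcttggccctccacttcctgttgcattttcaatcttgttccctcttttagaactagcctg
Ccl28 (chr13:119623569-119623818, plus strand): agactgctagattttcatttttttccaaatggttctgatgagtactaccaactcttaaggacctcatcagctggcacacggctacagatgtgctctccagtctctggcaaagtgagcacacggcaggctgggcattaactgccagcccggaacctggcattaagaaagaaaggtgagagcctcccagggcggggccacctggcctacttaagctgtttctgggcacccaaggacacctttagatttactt
Pigr (chr1:130826434-130826683, plus strand): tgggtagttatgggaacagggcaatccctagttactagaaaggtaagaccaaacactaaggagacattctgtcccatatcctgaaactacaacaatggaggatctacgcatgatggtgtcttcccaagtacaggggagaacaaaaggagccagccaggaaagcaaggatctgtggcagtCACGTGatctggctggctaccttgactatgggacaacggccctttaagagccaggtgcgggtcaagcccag

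The Ccl25 window held the CDX core, read on the opposite strand, between 192 and 187 bases before the start, and a TATA box between 16 and 11 bases before it. Ccl25 has 8 annotated starts in GENCODE, so the printed window stands for only 1 of several possible starts. The window of another RefSeq start, at the 5′ end of the gene, lies wholly within annotated exons and held none of the motifs. The counts are per gene and do not tell which start was used. The Pigr window held the E-box between 71 and 66 bases before the start, and the windows of Ccl6 and Ccl28 held none of the motifs. Among the windows not printed, that of Ccl20 held the NF-kappaB consensus between 80 and 71 bases before the start. The window of Cxcl1 held 2 overlapping matches of that consensus, the first of them between 71 and 62 bases before the start, and a CDX core between 35 and 30 bases before it. The window of Cx3cl1 held a TATA box between 6 and 1 bases before the start. These matches describe letters only.

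Ccl25 lies on chromosome 8 from 4325210 to 4360020 on the plus strand. It stood at 1668, 1022, 1229 and 1482 CPM in SI1 to SI4 and at 6.75, 9.39, 6.37 and 12.0 CPM in COL1 to COL4. Every SI library was far above every COL library, and the 8 libraries held 110340 counts in SI against 1190 in COL, so that the low COL level was itself well counted. The log2 fold change was 7.29 ± 0.48 (SE), with a 95% interval of 6.25 to 8.34 and an adjusted p of 6.51e-06 by edgeR's quasi-likelihood test. Within the single mice the differences on the log2 scale were 7.93, 6.76, 7.58 and 6.94. The exact permutation test, which ignored the pairing by mouse, gave p = 0.0286, the smallest possible when 4 against 4 libraries are assigned freely. In each of the 4 SI libraries Ccl25 made up 0.08% to 0.121% of all counts. Of its exon bases, 204 are shared with Elavl1 on the opposite strand, a gene at 19.6 to 28.4 CPM in SI and 21.7 to 37.4 CPM in COL.

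Ccl28 lies on chromosome 13 from 119623819 to 119654359 on the plus strand. It stood at 12.5, 25.1, 20.5 and 15.8 CPM in SI1 to SI4 and at 23.6, 29.8, 52.5 and 48.2 CPM in COL1 to COL4. The tissues overlapped, as SI2 was above COL1, although COL was higher in each of the 4 mice. By edgeR the log2 fold change was -1.06 ± 0.33 (SE), with a 95% interval of -1.79 to -0.34 and an adjusted p of 0.0327, whereas the exact permutation test gave p = 0.0571. The difference of mean log2 CPM was -1.83 between the SI and COL libraries of low mitochondrial share and -0.22 between those of high share. The edgeR call was lost when SI1, SI3, SI4, COL3 or COL4 was left out, with adjusted p-values of 0.0946, 0.0638, 0.0736, 0.0989 and 0.0889.

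**Figure D1:**
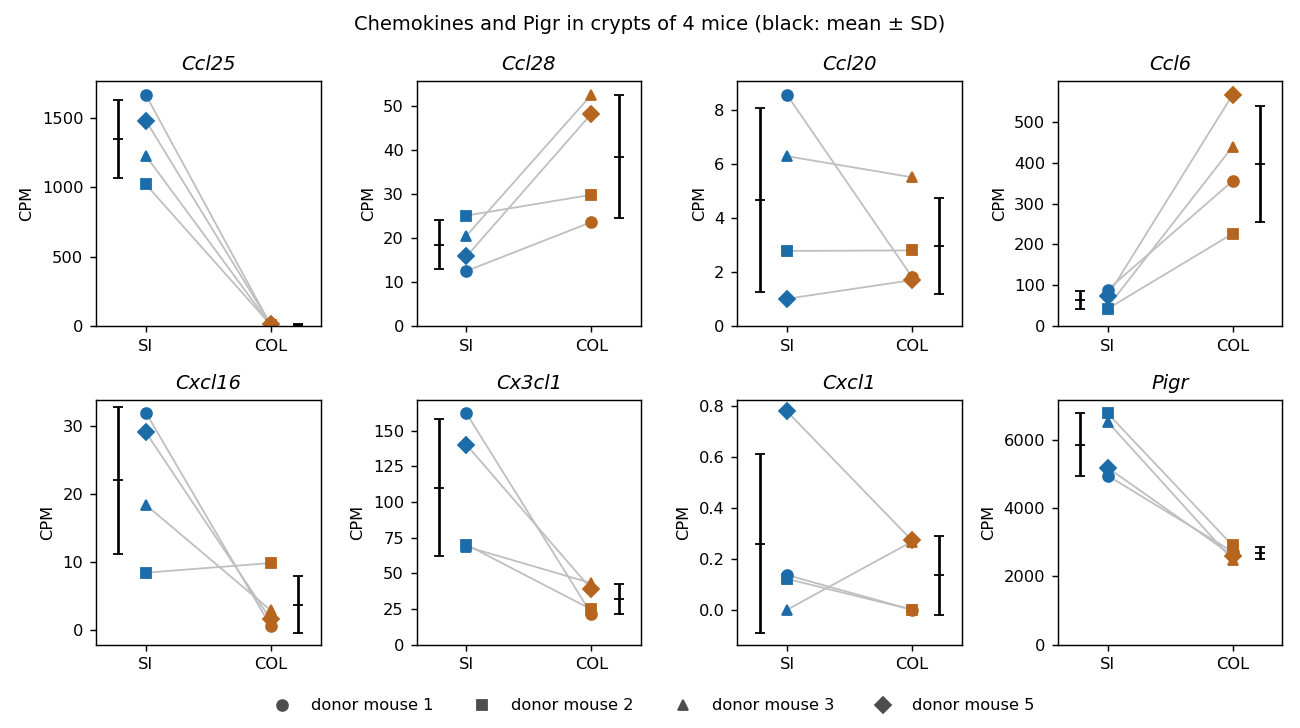
CPM of the 8 genes in SI and COL crypts, with 1 marker per library, its shape giving the donor mouse, and a line joining the libraries of a mouse. Black bars give the mean and SD of 4 libraries, and the axes differ between panels. Ccl25 falls from at least 1022 CPM in SI to at most 12.0 CPM in COL, and Ccl6 runs the other way in all 4 mice. The tissues overlap for Ccl28, Ccl20, Cxcl16 and Cxcl1.

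By edgeR, Ccl25 was thus higher in SI and Ccl28 in COL, the latter with overlap between the tissues. Their ratio within a library does not depend on the scaling between libraries. Per kilobase of exon, Ccl25 reads outnumbered Ccl28 reads 86.5, 26.5, 38.9 and 61 to 1 in SI1 to SI4. In COL1 to COL4, Ccl28 reads outnumbered Ccl25 reads 5.39, 4.88, 12.7 and 6.2 to 1. These ratios depend on the lengths used, all annotated exons, which cover 7445 bases for Ccl25 and 4844 for Ccl28. With the longest transcripts, of 2549 and 3740 bases, Ccl25 over Ccl28 would be higher by the same factor in every library. The order of the pair was reversed in each COL library, and the log2 ratio differed by 8.35 between the tissues. The mean log2 CPM differed by 7.30 for Ccl25 and by -1.03 for Ccl28. Most of the difference of the ratio thus lies in Ccl25, and the ratio does not show a difference of Ccl28.

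Ccl6 lies on chromosome 11 from 83587882 to 83593087 on the minus strand. It stood at 89.1, 42.3, 46.8 and 73.6 CPM in SI1 to SI4 and at 355, 226, 439 and 566 CPM in COL1 to COL4. All COL libraries were above all SI libraries. In edgeR's fit the log2 fold change was -2.66 ± 0.40 (SE), with a 95% interval of -3.53 to -1.78 and an adjusted p of 0.000513. The difference of mean log2 CPM was -2.62 between the libraries of low mitochondrial share and -2.67 between those of high share. Ccl9, a chemokine close to Ccl6 in sequence and receptor use, was also higher in COL, at 12.4 to 27.6 CPM against 1.9 to 7.92 CPM in SI (log2 fold change -1.93, adjusted p = 0.00675 by edgeR). No stretch of 50 bases of the longest Ccl6 transcript occurs in a transcript of another gene, so reads of that length are not shared with Ccl9.

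Myeloid cells are a known source of Ccl6, and 11 macrophage and dendritic cell markers summed to 22.3 to 30.1 CPM in SI and to 36.2 to 90.9 CPM in COL. Of the 7 of them tested, 1 was higher in COL, Cd14, a gene that epithelial cells can also express, and 1 was higher in SI, Itgam. Adgre1, Csf1r, C1qc and Fcgr1 had too few counts to be tested, with levels of 0 to 0.921 CPM in COL, and Cd68, C1qb and Lyz2 reached 3.42, 2.72 and 5.05 CPM there. Of 7 goblet cell markers, 3 were higher in COL, Muc2, Spdef and Agr2, and none was higher in SI. Their summed level was 2683 to 10867 CPM in SI and 12259 to 22536 CPM in COL. Muc2 largely carries the sum in COL, at 7718 to 16197 CPM, but not in SI, at 379 to 988 CPM. In SI the highest of the 7 was Fcgbp, at 1141 to 3930 CPM, so the 2 sums are carried by different genes. Tff3, Fcgbp and Zg16 did not pass and had higher means in SI, with log2 fold changes of 0.86, 0.66 and 0.88. The part of either cell type in the Ccl6 values was not tested.

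Cx3cl1 lies on chromosome 8 from 94772009 to 94782427 on the plus strand. It stood at 162, 70, 68.6 and 140 CPM in SI1 to SI4 and at 21.6, 24.6, 43.0 and 38.8 CPM in COL1 to COL4. The tissues did not overlap, and SI2 and SI3 were closest to COL. Its log2 fold change was 1.78 ± 0.37 (SE), with a 95% interval of 0.96 to 2.60 and an adjusted p of 0.00426 by edgeR. With library size alone it was 1.01 (adjusted p = 0.0566), and the tissues then overlapped.

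Cxcl16, the other membrane-bound chemokine, lies on chromosome 11 from 70453983 to 70459984 on the minus strand. It stood at 32.0, 8.40, 18.4 and 29.1 CPM in SI1 to SI4 and at 0.528, 9.82, 2.86 and 1.51 CPM in COL1 to COL4. COL2 stood above SI2, the library of the same mouse, and in the other 3 mice SI was higher. The log2 fold change was 2.61 ± 0.76 (SE), with a 95% interval of 0.94 to 4.28 and an adjusted p of 0.0239 by edgeR, and the exact permutation test gave p = 0.0571. Without COL2, which had the highest mitochondrial share at 50.8%, the log2 fold change was 3.81. The call was lost without SI1, SI4, COL3 or COL4, with adjusted p-values between 0.0512 and 0.0561. Of its 3021 exon bases, 552 are shared with Zmynd15 on the opposite strand, which had at most 28 counts in any library.

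The enzymes that can release these membrane chemokines, and 2 rhomboid-like proteins that control one of them, formed a list of 4 genes that were all tested. Rhbdf1 was higher in COL, at 11.4 to 18.5 CPM against 1.54 to 5.8 CPM in SI (log2 fold change -1.88, adjusted p = 0.00637 by edgeR). The sheddases Adam10 and Adam17 did not pass, with log2 fold changes of 0.74 and 0.64 that turned to -0.04 and -0.15 with library size alone. The median of the list was 0.56, against -0.09 for all genes tested.

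Ccl20 lies on chromosome 1 from 83116766 to 83119167 on the plus strand. It stood at 8.56, 2.78, 6.29 and 1.01 CPM in SI1 to SI4 and at 1.82, 2.80, 5.51 and 1.70 CPM in COL1 to COL4. The libraries of a tissue differed among themselves by as much as the tissues did, and SI was higher in 2 of 4 mice. Its log2 fold change was 0.66 ± 0.64 (SE), with a 95% interval of -0.75 to 2.06 and an adjusted p of 0.481 by edgeR, and it was -0.09 with library size alone. Of 8 markers of follicle-associated epithelium and M cells, the epithelium known for Ccl20, none was higher in SI. 2 were higher in COL, Ccl9 and Anxa5, with log2 fold changes of -1.93 and -2.29. The other 4 tested, Spib, Tnfrsf11a, Tnfaip2 and Marcksl1, did not pass, with log2 fold changes of -0.11, 0.08, 0.27 and -1.14. The summed level of the 8 markers was 46.8 to 62.5 CPM in SI and 78.4 to 140 CPM in COL. Gp2, at 0 in each SI library and at 0.117 to 1.78 CPM in COL, had too few counts to be tested.

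Cxcl1, on chromosome 5 from 90891241 to 90893115 on the plus strand, had 3, 2, 0 and 17 counts in SI1 to SI4 and 0, 0, 10 and 13 counts in COL1 to COL4. The highest SI and the highest COL counts came from the same mouse, mouse 5. The sums of 22 and 23 counts were too low for a test. In the libraries without a count, 3 counts would correspond to 0.0880 to 0.186 CPM, and such limits cover counting error only.

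Pigr lies on chromosome 1 from 130826684 to 130852249 on the plus strand. It stood at 4961, 6789, 6540 and 5194 CPM in SI1 to SI4 and at 2726, 2910, 2490 and 2612 CPM in COL1 to COL4. The tissues did not overlap and SI was higher in all 4 mice, by 0.86, 1.22, 1.39 and 0.99 on the log2 scale (exact permutation test, p = 0.0286). The log2 fold change was 1.13 ± 0.46 (SE), with a 95% interval of 0.12 to 2.13, and the adjusted p was 0.0879 by edgeR's quasi-likelihood test. It was 0.204 with the donor mouse as a block, 0.0383 by limma-voom, 0.0862 by limma-voom with the block, and 3.26e-06 by DESeq2. As a share of all counts without further scaling, Pigr took 0.361% to 0.531% in SI and 0.293% to 0.393% in COL, and these ranges overlapped. With library size alone the log2 fold change was 0.39 (adjusted p = 0.536).

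Ratios to Pigr within each library need no scaling between libraries, but they take in the difference of Pigr itself. For Ccl28 over Pigr the log2 ratio differed by -2.15 between the tissues. The mean log2 CPM differed by -1.03 for Ccl28 and by 1.12 for Pigr, so this ratio does not show a difference of Ccl28 alone. Pigr reads per kilobase outnumbered Ccl6 reads 24.8 to 71.6 times in SI and 2.06 to 5.75 times in COL, and they outnumbered Ccl28 reads 325 to 476 times in SI and 57.1 to 139 times in COL. The ratio of Ccl25 to Pigr was 0.0814 to 0.182 in SI and 0.00134 to 0.00247 in COL. None of these 3 ratios overlapped between the tissues, but Pigr itself did not overlap either, whereas Ccl28 alone did. How often the ratios of other genes to Pigr overlap was not computed. The ratio of Cx3cl1 to Pigr overlapped, at 0.0106 to 0.0334 in SI and 0.00812 to 0.0177 in COL.

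**Figure D2:**
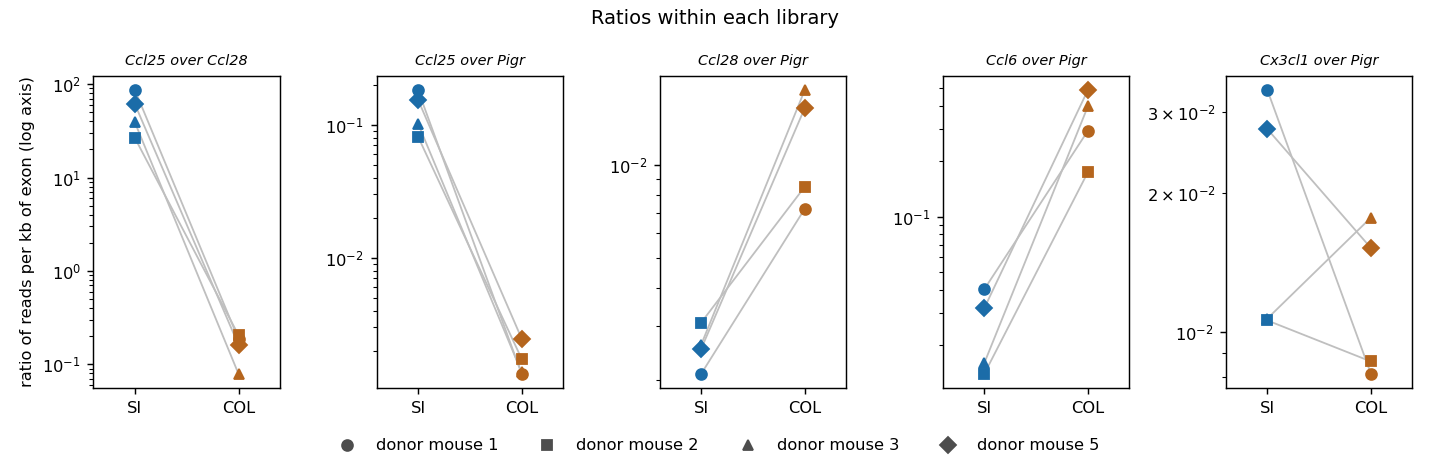
Ratios of reads per kilobase of exon within each library, on log axes that differ between panels, with 1 marker per library and a line for each mouse. Ccl25 over Ccl28 lies between 26.5 and 86.5 in SI and between 0.0789 and 0.205 in COL. Cx3cl1 over Pigr is the only ratio of the 5 that overlaps, and Pigr by itself does not overlap.

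4 of the 7 genes tested did not overlap between the tissues, Ccl25, Ccl6, Cx3cl1 and Pigr. Among all genes tested, 33.5% did not overlap. With library size alone 3 did not overlap, Ccl25, Ccl6 and Ccl28, and with the size factors of DESeq2 5 did not, the 4 named first and Ccl28. The share over all genes was computed with TMM only, so the counts under these other scalings have no background beside them.

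**Figure D3:**
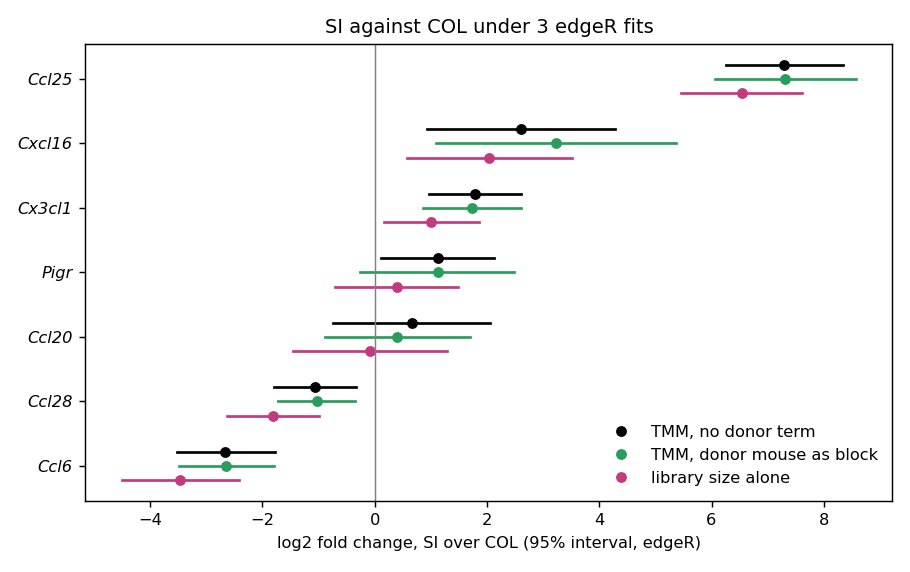
Log2 fold change of SI over COL with its 95% interval for the 7 genes tested, by edgeR with TMM scaling (black), with the donor mouse as a block (green) and with library size alone (pink). The Ccl25 estimate lies between 6.54 and 7.31 in the 3 fits, and Ccl20 crosses from 0.66 to -0.09 with library size alone.

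Levels of different genes were compared per kilobase of exon. In SI, Pigr was first at 1459 ± 230 CPM per kilobase (SD, n = 4), rank 45 of 14441 genes, followed by Ccl25 at 181 ± 38.1. Ccl6 at 35.1 ± 12.4 and Cx3cl1 at 28.0 ± 12.2 came next and overlapped, and Cxcl16 at 7.28 ± 3.57, Ccl28 at 3.82 ± 1.14 and Ccl20 at 3.28 ± 2.39 also overlapped with their neighbours. In COL, Pigr again stood first at 667 ± 44.4 CPM per kilobase, rank 47, and Ccl6 was second at 221 ± 79.8. Ccl6 moved from rank 1393 in SI to rank 160 in COL, and Ccl25 from rank 363 to rank 9772. Cx3cl1 at 8.14 ± 2.67 and Ccl28 at 7.96 ± 2.89 overlapped in COL, and Ccl20, Cxcl16 and Ccl25 followed at 2.08, 1.22 and 1.16 CPM per kilobase, each overlapping with the next. The Ccl25 level depends on the length used, as its annotated exons cover 7445 bases and its longest transcript 2549. With the longest transcript it was 530 CPM per kilobase in SI and 3.38 in COL.

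**Figure D4:**
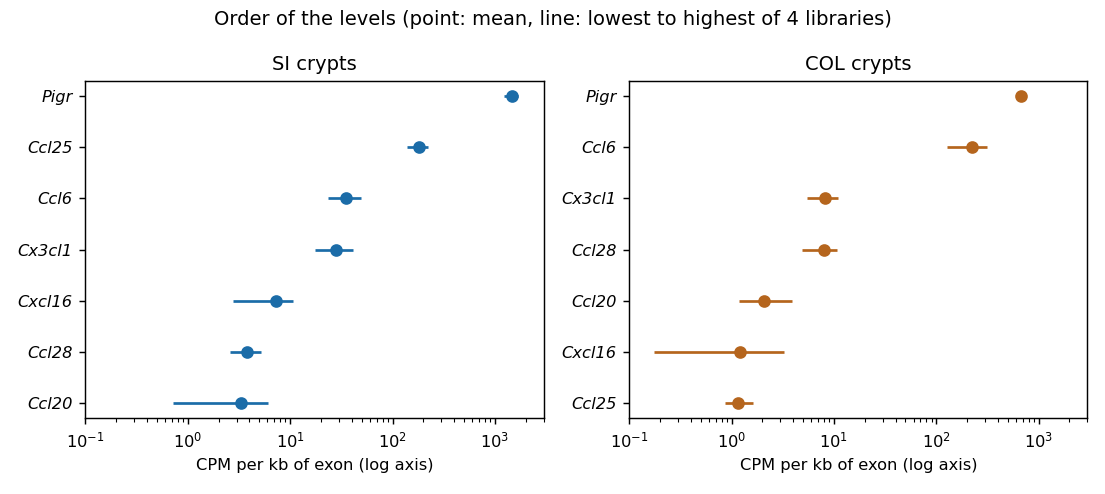
Levels of the 7 genes tested in CPM per kilobase of exon on a log axis, in order, with the mean as a point and the lowest to highest of 4 libraries as a line. Pigr leads in both tissues, and the second place is held by Ccl25 in SI and by Ccl6 in COL.

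Among the SI libraries the genes were ordered in opposite ways. Ccl25, Ccl6, Cxcl16 and Cx3cl1 were each higher in SI1 and SI4 than in SI2 and SI3, by 0.49, 0.86, 1.29 and 1.12 on the log2 scale. Ccl28 and Pigr were lower in SI1 and SI4, by -0.69 and -0.39. SI1 and SI4 were the libraries of low mitochondrial share, of the 2 females, and of the highest sum of enterocyte markers, at 124976 and 93019 CPM against 58663 and 57217 CPM in SI2 and SI3. The enterocyte markers did not all share this order, as Sis stood at 2049 and 2235 CPM in SI1 and SI4 and at 2163 and 3374 CPM in SI2 and SI3, and Slc5a1 was lowest in SI1 at 6143 CPM. SI1 and SI4 also had the highest sums of goblet markers, at 10867 and 8126 CPM against 2683 and 4062 CPM, and of T cell markers, at 666 and 439 CPM against 184 and 211 CPM. They had the lowest sums of Paneth cell markers, at 564 and 1719 CPM against 3965 and 2578 CPM, and of proliferation markers, at 104 and 299 CPM against 498 and 438 CPM. Within COL, the libraries of low mitochondrial share were those of a male and a female, and the same difference was 0.82 for both Ccl6 and Cx3cl1, 0.92 for Ccl28, 0.13 for Ccl25, -0.18 for Cxcl16 and -0.14 for Pigr. The part of mitochondrial share, sex or cell makeup in these values was not tested.

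Whether the difference between the tissues itself differed between female and male mice was tested by the interaction term. None of the 14491 genes passed (0%) by edgeR or limma-voom. An unadjusted p under 0.05 was found for 761 genes (5.25%) by edgeR and 806 (5.56%) by limma-voom. Cxcl16 was the only gene of the set among the 761, with a log2 difference of -3.79 ± 0.98 (SE) (male minus female mice), an unadjusted p of 0.00315 and an adjusted p of 0.909 by edgeR. Its SI minus COL differences were -0.22 and 2.65 in male mice 2 and 3, and 5.74 and 4.21 in female mice 1 and 5. In SI, sex and mitochondrial share cannot be told apart, as stated above. For Ccl25 and Pigr the interaction was -0.23 ± 0.80 (SE) and 0.38 ± 1.07 (SE).

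The receptors of these ligands, which sit on leukocytes, were near the limit of counting. Ccr9 stood at 2.99, 2.24, 1.52 and 3.20 CPM in SI1 to SI4 and at 0.499, 1.18, 0.562 and 0.838 CPM in COL1 to COL4, without overlap. Its log2 fold change was 1.70 ± 0.54 (SE) with an adjusted p of 0.0355 by edgeR, 0.0602 with the donor mouse as a block, and 0.149 with library size alone. Cxcr6 stood at 4.71, 1.15, 0.862 and 2.47 CPM in SI and at 0.704, 0.622, 0.107 and 1.4 CPM in COL, with overlap and an adjusted p of 0.14 by edgeR. The other 6 receptors had too few counts to be tested. Ccr6 was found in SI2 and SI3 at 0.725 and 0.811 CPM and had no count in SI1 and SI4, and it reached at most 0.126 CPM in COL. Ccr1, the receptor of CCL6, stood at 0 to 0.136 CPM in SI and at 0.249 to 1.15 CPM in COL, without overlap. Ccr10 and Cxcr2 reached at most 0.311 and 0.458 CPM in any library, Ccr3 was seen only in SI2 at 0.665 CPM, and Cx3cr1 ranged from 0 to 1.69 CPM in SI and from 0.147 to 0.649 CPM in COL.

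Of 12 T cell and intraepithelial lymphocyte markers, 9 were higher in SI and none was higher in COL, with summed levels of 184 to 666 CPM in SI and 18.4 to 134 CPM in COL. With library size alone 3 of the 12 were higher in SI. None of 12 plasma cell and B cell markers was higher in SI and 1 was higher in COL, Sdc1, which epithelial cells also express. With the donor mouse as a block 2 passed as higher in SI, Jchain (adjusted p = 0.0332) and Igkc (adjusted p = 0.0202), a light chain of antibodies. Igha, the heavy chain of IgA, stood at 20.8 to 31.1 CPM in SI and at 3.40 to 45.5 CPM in COL, where COL4 alone was above SI. Jchain, which joins 2 IgA molecules into the form that PIGR binds, stood at 4.94 to 9.06 CPM in SI and at 0.616 to 5.70 CPM in COL (log2 fold change 1.69, adjusted p = 0.107 by edgeR). The part of these cells in the receptor values was not tested.

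Of 30 other chemokine ligands, 10 had enough counts to be tested. 4 were higher in SI and 1 in COL, and with library size alone 2 were higher in either tissue. The median log2 fold change of the 10 was 1.03. Ccl24, an eosinophil chemokine that acts on CCR3, stood at 47.1, 8.10, 13.1 and 33.4 CPM in SI1 to SI4 and at 0 to 0.695 CPM in COL (log2 fold change 6.71, adjusted p = 0.000384 by edgeR). Ccl5, a product of cytotoxic lymphocytes that is also in the T cell list, was at 59.5 to 219 CPM in SI and 4.66 to 59.5 CPM in COL (log2 fold change 2.51, adjusted p = 0.0258 by edgeR, and 0.101 with library size alone). The interferon-induced Cxcl10 and Cxcl11 had log2 fold changes of 2.33 and 2.39, and their adjusted p by edgeR was 0.0421 and 0.00265. For Cxcl10 it was 0.0519 with the donor mouse as a block. Of the 50-base stretches of the longest Cxcl11 transcript, 40.9% also occur in another gene, so its counts are uncertain.

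**Figure D5:**
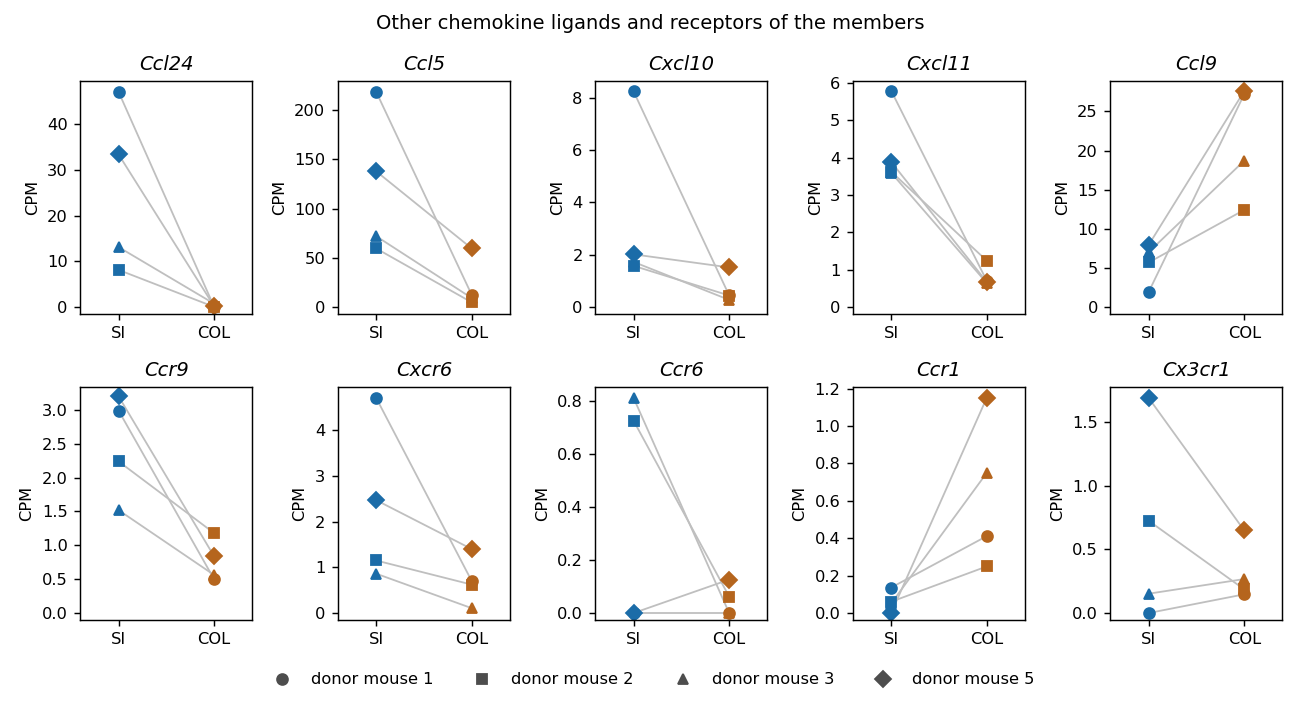
CPM of 5 other chemokine ligands (Ccl24, Ccl5, Cxcl10, Cxcl11, Ccl9) and 5 receptors in SI and COL crypts, with 1 marker per library and a line for each mouse, on axes that differ between panels. Ccl24 is at most 0.695 CPM in COL, Ccl9 and Ccr1 are higher in each COL library than in any SI library, and all receptors stay under 5 CPM.

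Of the atypical receptors, which bind chemokines without the usual signalling, 3 of 5 were tested. Ackr3, which takes up CXCL12, was higher in COL, at 1.29 to 3.79 CPM against 0 to 0.253 CPM in SI (adjusted p = 0.00367 by edgeR). No gene of the list was higher in SI, and its median was -0.35.

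PIGR reaches the lumen through apical recycling and transcytosis, and 11 genes of that route were all tested. 4 were higher in SI and 2 in COL, the median was -0.45, and with library size alone 1 was higher in SI and 5 in COL. Rab17, a small GTPase of transcytosis, stood at 70.8 to 144 CPM in SI and at 11.7 to 31.2 CPM in COL (log2 fold change 2.35, adjusted p = 0.00064 by edgeR). Myo5b, the motor of recycling endosomes, and Fcgrt, the transporter of IgG, had log2 fold changes of 1.76 and 1.41 and edgeR's adjusted p was 0.0138 and 0.0357. For Myo5b the adjusted p was 0.0515 with the donor mouse as a block, and with library size alone neither passed (0.0843 and 0.334). Rab3d, a GTPase of regulated secretion, ran the other way, at 10.6, 18.3, 26.4 and 18.5 CPM in SI1 to SI4 and at 208, 126, 201 and 265 CPM in COL1 to COL4 (log2 fold change -3.44, adjusted p = 5.89e-05 by edgeR). Mal2 was the other gene of the list higher in COL, at 43.3 to 85.5 CPM against 20.4 to 43.1 CPM in SI (log2 fold change -1.08, adjusted p = 0.0198 by edgeR). Goblet markers summed higher in each COL library than in any SI library, as given beside Ccl6, and their part in Rab3d was not tested.

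The cytokine receptors known to raise Pigr or these chemokines differed in both directions. Of 13, all tested, 6 were higher in SI and 3 in COL, and 4 and 4 with library size alone. The median of 0.75 went to -0.02 with that scaling. Il22ra1, which carries the IL-22 signal, stood at 29.8 to 83.9 CPM in SI and at 3.64 to 13.2 CPM in COL (log2 fold change 2.76, adjusted p = 0.000939 by edgeR), and the TNF receptor Tnfrsf1a at 182 to 409 CPM in SI and 25.4 to 81.9 CPM in COL (2.42, adjusted p = 0.00321). Il17re, which binds IL-17C, stood at 0 to 1.42 CPM in SI and at 4.90 to 20.9 CPM in COL, and Il1r1, the IL-1 receptor, at 0 to 1.15 CPM in SI and 7.41 to 12.2 CPM in COL. Both were higher in COL, and edgeR's adjusted p was 0.00325 and 0.00479.

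Of 18 regulators of NF-kappaB, interferon and STAT signalling, 6 were higher in SI and none in COL, but with library size alone 2 were higher in either tissue, and the median went from 0.72 to 0.02. Stat6, which relays IL-4, stood at 224 to 336 CPM in SI and 41.3 to 117 CPM in COL, and Irf1, an interferon-induced activator, at 209 to 480 CPM in SI and 43.2 to 134 CPM in COL. Their log2 fold changes were 1.82 and 1.63, and edgeR's adjusted p was 0.00343 and 0.0128. The kinase Chuk and the inhibitor Nfkbib had log2 fold changes of 1.49 and 1.48, and edgeR's adjusted p was 0.000721 and 0.0468. For Irf1 and Nfkbib the adjusted p with library size alone was 0.109 and 0.316.

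The genes whose pattern over the 8 libraries was most like that of each gene were found by the root mean square difference of log2 CPM, centred on the mean, among 10183 protein-coding genes. For Ccl25 these were Slc25a45 at a difference of 0.16 and Asah2 at 0.39, and for Ccl6 Oit1 was at 0.32. Cx3cl1 was followed by Pnpla6 at 0.12 and Prr13 at 0.14, Pigr by Ssx2ip at 0.12 and Rasgrf2 at 0.13, and Ccl28 by D630039A03Rik and Mtrr at 0.18 each. Cxcl16 and Ccl20 had no such close neighbour, with Clca4a at 0.59 and Myzap at 0.61 for Cxcl16, and Trmt44 and Ghr at 0.62 each for Ccl20. These are descriptions over 8 libraries, some of which share tissue, mouse or a low or high mitochondrial share.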

How the data were processed

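The deposited counts, whole numbers of reads per Ensembl gene without normalization, were made by the authors from paired-end reads with Trimmomatic 0.36 and STAR 2.5.2b (versions from the submitters' processing notes) on mm10. The annotation release and the use of strand are not given in the sources used here. Of the 45706 gene identifiers, 45143 were matched to symbols and coordinates in GENCODE vM21, whose assembly GRCm38 is that of mm10.

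SI was compared with COL by edgeR 4.0.16 (glmQLFit, glmQLFTest, R 4.3.3) with TMM, filterByExpr (about 10 counts in at least 4 libraries and 15 in all) and Benjamini-Hochberg adjustment over 14491 genes, at a threshold of 0.05. The methods of the study name limma without its settings, so limma 3.58.1 (voom) and DESeq2 1.42.0 were alternatives, as were library size alone, no or a stricter filter, mitochondrial share as covariate and leaving out each library. The replicate numbers stand for the donor mouse, so the libraries of a mouse are paired. The correlation of their deviations from the tissue means was -0.24, 0.39, -0.08 and 0.33 for mice 1, 2, 3 and 5, and the donor block was an alternative. Each tissue had 4 libraries from separate mice. Exact permutation tests were two-sided over 70 assignments and used log2 CPM (prior count 2). They assigned the libraries freely to the tissues and so ignored the pairing by mouse.

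The genes and lists were chosen with earlier results of these data known. Named are the 8 genes, their receptors, at most 4 genes per list that passed in the same direction in all 4 mice by size of change, and the 2 nearest patterns of each gene with a mean log2 CPM of at least 1. One of the nearest patterns is not reported here. Adam10, Adam17, Ccl9, Cd14, Elavl1, Gp2, Elane, Igha, Itgam, Jchain, Ly6g, Mal2, Mpo, Sdc1 and Zmynd15 and the single cell type markers were named after their values were seen. The fits were tested on simulated data. Counting error is small beside the spread between mice, except in genes of a few counts.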

Additional observations from a re-analysis of the deposited data

How the results depend on the processing

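Of the 7 genes tested, Ccl25 and Ccl6 passed under all 21 alternative fits, Cx3cl1 under 20, Ccl28 and Cxcl16 under 15 each, and Pigr under 4. With the donor mouse as a replicate block the same 5 genes passed, and 4072 genes in all, against 4116 without it. Among the 98 listed genes of the pathways, 67 were tested. Of these, 32 passed, 31 with the block and 27 with library size alone. The last were split into 12 with more in SI and 15 with more in COL instead of 24 and 8. Of all 14491 genes tested, 4116 passed (28.4%), and 5903 with library size alone. Leaving out 1 library left 3 to 5 of the genes and 3167 to 4480 genes in all. The 3 that remained without SI1, SI4, COL3 or COL4 were Ccl25, Ccl6 and Cx3cl1. The same 3 passed among the libraries of high mitochondrial share only, where 2264 genes passed in all and Ccl28 and Cxcl16 had adjusted p-values of 0.659 and 0.45 (a comparison added after the data had been examined, with 2 libraries per tissue). The log2 fold change of Ccl20 reversed to -0.09 with library size alone. Between the libraries of low mitochondrial share, its difference of mean log2 CPM was -0.04, while the fit to those libraries gave a log2 fold change of 0.40. For Pigr the adjusted p was 0.00506 with mitochondrial share as a covariate and 0.0277 with the block added. For Cxcl16 this last fit, also added later, gave 0.066. With the longest transcript as length, 9 of 14 positions in the order of levels stayed. The causes were not tested. At this depth Cxcl1 and 6 of the 8 receptors had too few counts for a test.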

Other observations

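Among 9 epithelial cytokines that act on lymphocytes, 6 had enough counts to be tested, 3 were higher in SI and none in COL, also with library size alone, and the median log2 fold change was 1.49 against -0.09 for all genes tested. Il33, an alarmin that acts on innate lymphoid cells, stood at 22.7, 33.3, 66.2 and 20.1 CPM in SI1 to SI4 and at 0.117, 0.186, 0.936 and 0.272 CPM in COL1 to COL4 (log2 fold change 6.48, adjusted p = 5.81e-05 by edgeR). SI3 was the highest library, and each SI library was above each COL library. Tnfsf13b, which encodes the B cell factor BAFF, stood at 10.8 to 25.1 CPM in SI and 1.99 to 4.41 CPM in COL (log2 fold change 2.30, adjusted p = 0.00153 by edgeR). Il15, which maintains intraepithelial lymphocytes, stood at 26.0 to 53.1 CPM in SI and 5.98 to 19.4 CPM in COL (log2 fold change 1.84, adjusted p = 0.00405 by edgeR). The T cell markers that were higher in SI are given beside Ccr9, and their part was not tested. Neutrophil markers, beside CXCL1 as a neutrophil chemokine, were at or near 0 except Ly6g, which stood at 2.52 to 32.8 CPM in COL and 0 to 0.152 CPM in SI, while Mpo and Elane were at 0 in each library.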
